A study of Mus musculus with 7 samples.

Results

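The 9 genes described here encode the enzymes that make, recycle and break down glutathione: Gclc, Gclm, Gss, Gsr, Ggt1, Ggct, Oplah, Chac1 and Chac2. They were chosen by their function and found by gene symbol in a table of 38293 genes, in which each was listed once. All 9 passed the filter on low counts that left 14869 genes for testing. The libraries came from scrapings of the ileum, the last part of the small intestine, so that RNA of the mucosa, with its connective tissue, was read and the muscle wall was left behind. The donors were male C57BL/6NRJ mice, housed individually and described as 8 weeks old, without a stated age at sacrifice. Every one of them ate a purified high fat, low calcium AIN93-G diet with 40% of the energy from fat. After 1 week on the control diet, 4 mice stayed on it for 2 weeks (normal cys, 0.38% cystine) and 3 mice spent these 2 weeks on the same diet with the added L-cystine replaced by alanine (low cys, 0.08% cystine). Cystine, the oxidized dimer of cysteine, was thus restricted but not removed.

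Glutathione is the main thiol antioxidant of the cell and a store of cysteine. Its synthesis starts with glutamate-cysteine ligase, whose catalytic subunit is encoded by Gclc and whose modifier subunit is encoded by Gclm, and is completed by glutathione synthetase (Gss). Glutathione reductase (Gsr) turns the oxidized form back into glutathione with NADPH, while Ggt1 at the cell surface and the Chac enzymes in the cytosol start its breakdown. Cysteine supply is a known limit to the first step, so the comparison of the diets asked whether the mRNAs of this cycle differed when less cystine was eaten.

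Primers for qRT-PCR of the synthesis genes Gclc, Gclm and Gss are shown because they fix which part of each mRNA such an assay reads. They are written 5′ to 3′.
Gclc forward: catcctccagttcctgcaca
Gclc reverse: tgtactccacctcgtcaccc
Gclm forward: tcagccccgatttagtcagg
Gclm reverse: tgccatgtcaactgcacttc
Gss forward: acaacgagcgagttgggatg
Gss reverse: cctgctttgccagttcttcg
In the GENCODE M21 transcripts (GRCm38), each pair matched its own gene exactly and 0 transcripts of other genes. The Gclc pair spans 83 bases of coding sequence over exons 1 and 2, on the plus strand of chromosome 9 from 77754887 to 77775088. The Gclm pair spans 167 coding bases from exon 2 to exon 5, on the plus strand of chromosome 3 from 122255591 to 122262601. The Gss pair spans 81 bases of exons 1 and 2, not all of them coding, on the minus strand of chromosome 2 from 155587507 to 155592704. The Gclc pair matched 1 of 3 annotated transcripts of its gene, the Gclm pair 4 of 7 and the Gss pair 2 of 9, whereas the counts reported here cover all annotated exons.

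Promoter windows from RefSeq (GRCm38.p6, 250 bases before to 50 after a start) were matched for 6 of the 9 genes. Gclc, Gsr and Oplah were not matched. A pair of stretches of 100 bases is shown for Gclm, the second subunit of the first enzyme, and for Chac1, whose expression stood apart in 1 library. The capitals mark the match to a searched motif, here on the opposite strand in both.
Gclm chr3:122245377-122245476 (plus strand): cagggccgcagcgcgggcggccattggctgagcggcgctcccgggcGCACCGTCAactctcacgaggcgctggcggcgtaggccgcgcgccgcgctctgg
Chac1 chr2:119351003-119351102 (plus strand): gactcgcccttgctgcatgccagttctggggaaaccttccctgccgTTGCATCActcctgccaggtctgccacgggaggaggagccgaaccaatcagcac
TGACNNNGC, the core of the antioxidant response element, was searched on both strands and matched Gclm from base -134 to base -126 before the start. It also matched windows of Ggt1 and Ggct, and 12.4% of all 32851 windows. TGATGNAA, a core of the amino acid response element bound by ATF4, matched Chac1 from base -193 to base -186 and 3.97% of all windows. A match describes the letters only, and binding was not measured.

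The deposited values were raw counts per gene. The normal cys libraries held 19712355 to 22412703 counts and the low cys libraries 14888760 to 21942518. Levels are given as CPM, the usual depth-scaled read count, after TMM scaling between libraries. No library was a duplicate of another. Across genes, which are not independent replicates, the median Pearson correlation of normal cys library X1SI4 with the others was 0.962, against 0.974 to 0.979 for the other 6. Enterocyte markers (8 of 8 found) summed to 29064 to 51473 CPM in the normal cys and 14571 to 31661 CPM in the low cys libraries, with the lowest sum in low cys library X23SI4. Distal ileum markers were present in every library (5169 to 11368 CPM over 5 genes). The 7 pancreatic acinar markers summed to at most 5.41 CPM, and Cela2a and Pnlip were at 0 in every library. In a scraping, fewer cells of a type and less RNA per cell cannot be told apart.

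Between the diets, 0 of the 9 genes had an adjusted p-value under 0.05 in the quasi-likelihood test of edgeR (Benjamini-Hochberg over the 14869 genes), and their adjusted p-values ran from 0.794 to 0.945. The same was true of all genes tested (0% called), while 817 genes had an unadjusted p under 0.05. DESeq2 called 16 genes (0.108%), 0 of the 9 among them, but it gave no p-value for Chac1. At an unadjusted p under 0.05, 1 of the 9 passed, Ggt1, which was lower on the low cystine diet, against 5.49% of all genes (2.83% lower and 2.66% higher). Its libraries were also the only ones of the 9 that did not overlap between the diets, against 6.83% of all genes (3.51% lower and 3.32% higher). The estimate was lower on the low cystine diet for 7 of the 9 genes, against 48.8% of all genes, and the median log2 fold change was -0.24. Scaling to the total count alone, without TMM, moved the median log2 fold change of all genes from 0.0072 to 0.15, and then 5 of the 9 estimates were lower, against 28.2% of all genes.

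**Figure D1:**
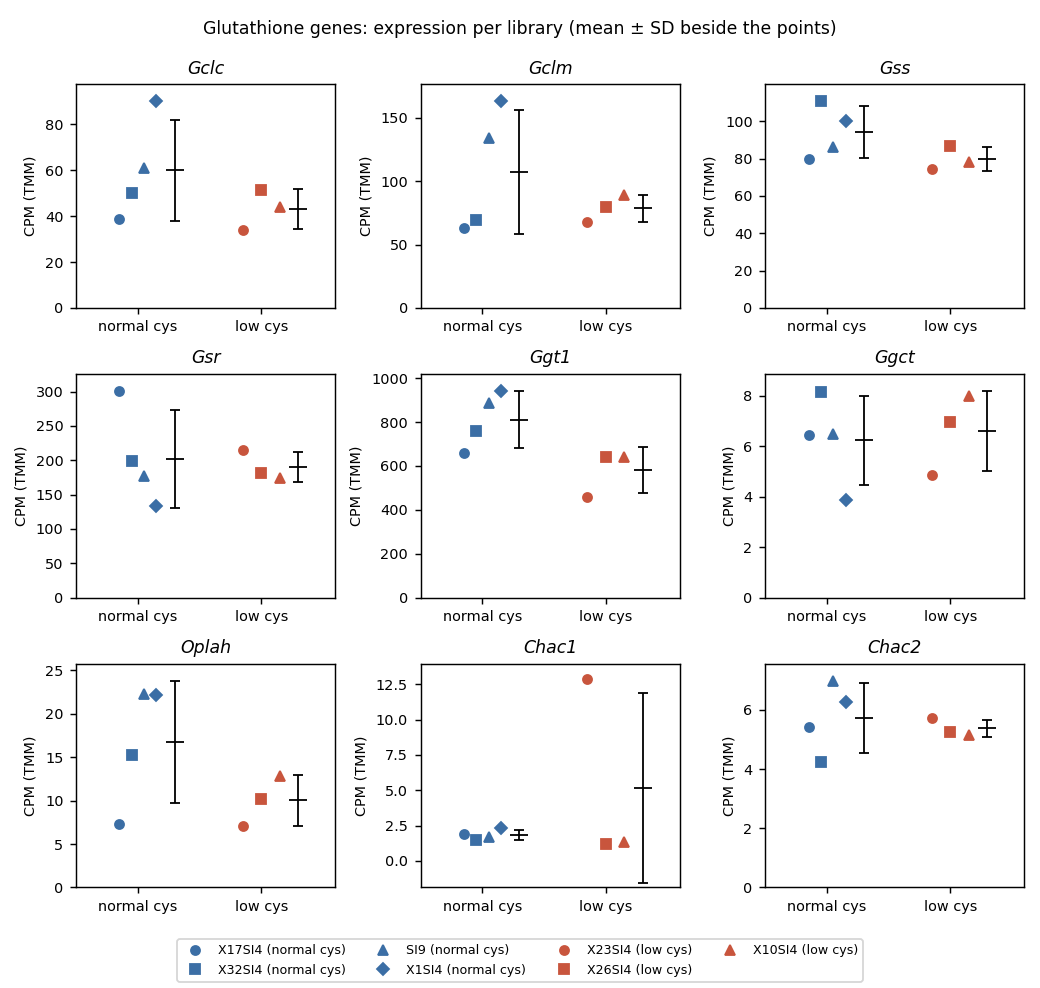
Expression of the 9 genes in CPM (TMM-scaled, linear axis, a separate axis for each gene) in the 4 normal cys (blue) and 3 low cys (red) libraries, with the mean and SD beside the points. Only the libraries of Ggt1 do not overlap between the diets, and Chac1 is at 12.9 CPM in low cys library X23SI4 against 1.19 to 2.29 CPM in the others.

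Gclc (ENSMUSG00000032350), the catalytic subunit and the step that usually limits the rate of synthesis, lies on the plus strand of chromosome 9 from 77754535 to 77794485 (GRCm38, as for all coordinates here). It had 38.8, 50.3, 61.0 and 90.2 CPM in the normal cys libraries X17SI4, X32SI4, SI9 and X1SI4. In the low cys libraries X23SI4, X26SI4 and X10SI4 it had 34.0, 51.6 and 44.0 CPM. The low cys values lay within or just below the lower part of the normal cys range, and X1SI4 alone was far above all others. The means were 60.1 ± 22.1 (SD, n = 4) and 43.2 ± 8.83 CPM (SD, n = 3). For Gclc, edgeR put the diet difference at -0.48 on the log2 scale (standard error 0.28, adjusted p = 0.794), and the libraries of the diets overlapped. The estimate was -0.21 without X1SI4 and -0.64 without X17SI4, the ends of its range when 1 library was omitted, and without normal cys library X17SI4 its unadjusted p in edgeR was 0.0279.

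Gclm (ENSMUSG00000028124), the modifier subunit, which makes the enzyme more efficient, lies on the plus strand of chromosome 3 from 122245557 to 122269984. Its values were 63.1, 69.3, 134 and 163 CPM in X17SI4, X32SI4, SI9 and X1SI4, and 67.5, 79.4 and 88.8 CPM in X23SI4, X26SI4 and X10SI4. The normal cys libraries were split, with X17SI4 and X32SI4 low and SI9 and X1SI4 high, and all 3 low cys libraries were below the high pair. The coefficient of variation was 45.8% in the normal cys and 13.6% in the low cys libraries, where the median over all genes was 21.6% and 13.8%. For Gclm, edgeR put the diet difference at -0.45 on the log2 scale (standard error 0.33, adjusted p = 0.798), and it was -0.18 without X1SI4, -0.64 without X17SI4 and -0.29 with scaling to the total count. Part of Gclm lies over Gm6061 on the same strand, for 4.402% of the exon bases of Gclm, and Gm6061 had up to 2947 counts in a library. Of the stretches of 50 bases in Gclm, 4.58% were shared with transcripts of other genes, Gm6061 and Ppia among them. Reads there could come from any of these genes.

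Gss (ENSMUSG00000027610), which adds glycine in the last step, lies on the minus strand of chromosome 2 from 155563181 to 155592810. It varied little, with 79.9, 111, 86.0 and 100.2 CPM in X17SI4, X32SI4, SI9 and X1SI4, and 74.5, 86.6 and 78.0 CPM in X23SI4, X26SI4 and X10SI4. X23SI4 and X10SI4 were below every normal cys library, while X26SI4 was above X17SI4 and SI9. For Gss, edgeR put the diet difference at -0.24 on the log2 scale (standard error 0.14, adjusted p = 0.794). It was -0.14 without normal cys library X32SI4 and -0.11 with scaling to the total count. Exons of Gss overlap those of Acss2 on the opposite strand over 6.68% of its exon bases, and the strand setting of the counting is not given in the sources used here.

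The subunits Gclc and Gclm were also compared with each other within each library, after division by exon length. The ratio of Gclc to Gclm was 0.997, 1.18, 0.739 and 0.895 in X17SI4, X32SI4, SI9 and X1SI4, and 0.816, 1.05 and 0.804 in X23SI4, X26SI4 and X10SI4. Per kb of annotated exon, the ratio thus ran from 0.739 to 1.18 over the 7 libraries, and the diets overlapped. Annotated exons can be longer than the transcripts present, so the ratio of the mRNAs themselves was not measured. The difference of the log2 ratio, low minus normal, was -0.087 (exact permutation test, two-sided, p = 0.657, 23 of 35 splits at least as far). The smallest p that 35 splits allow is 0.0286.

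Gsr (ENSMUSG00000031584), which recycles oxidized glutathione with NADPH, lies on the plus strand of chromosome 8 from 33652523 to 33698163. It had 301, 199, 177 and 133 CPM in X17SI4, X32SI4, SI9 and X1SI4, and 215, 181 and 175 CPM in X23SI4, X26SI4 and X10SI4. The normal cys libraries covered a 2.27-fold range, and all low cys values lay inside it. The libraries X17SI4 and X1SI4, at the ends of the Gclc and Ggt1 ranges among the normal cys libraries, were at the opposite ends for Gsr. For Gsr, edgeR put the diet difference at -0.089 on the log2 scale (standard error 0.25, adjusted p = 0.929), and its direction turned to 0.052 when counts were scaled to the total without TMM.

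Ggt1 (ENSMUSG00000006345), the gamma-glutamyltransferase of the cell surface that splits extracellular glutathione, lies on the plus strand of chromosome 10 from 75561604 to 75586200. It had 657, 758, 887 and 943 CPM in X17SI4, X32SI4, SI9 and X1SI4. In X23SI4, X26SI4 and X10SI4 it had 460.1, 641 and 643 CPM. Every low cys library lay below every normal cys library, by a gap of 13.9 CPM between the closest. The means were 811 ± 129 (SD, n = 4) and 581 ± 105 CPM (SD, n = 3), a low-to-normal ratio of 0.717. For Ggt1, edgeR put the diet difference at -0.48 on the log2 scale (standard error 0.19, adjusted p = 0.794, unadjusted p = 0.0308).

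The estimate for Ggt1 was lower in 14 of 14 alternatives in tool, scaling, filter, fit or libraries (-0.57 to -0.33), while its unadjusted p in edgeR was over 0.05 in 4 of them. Scaled to the total count without TMM, it was 638 CPM in normal cys library X17SI4 against 670.2 CPM in low cys library X10SI4, so the diets overlapped, and the log2 fold change was -0.34, with an unadjusted edgeR p of 0.0681. It was -0.33, -0.44 or -0.40 without low cys library X23SI4, normal cys library SI9 or normal cys library X1SI4, with an unadjusted edgeR p of 0.127, 0.0654 or 0.0636. Without X17SI4, X32SI4, X26SI4 or X10SI4 it was -0.57, -0.50, -0.53 or -0.56, with an unadjusted edgeR p of 0.0157, 0.0407, 0.0453 or 0.0426. Of the enterocyte markers, 8 of 8 had a lower estimate on the low cystine diet too, against 48.8% of all genes. On TMM-scaled values, the libraries did not overlap for the markers Vil1 and Krt20, 2 of these 8, against 6.83% of all genes. Scaling to the total count was not examined for the markers. The part of the enterocytes in the Ggt1 difference was not tested. Relative to Vil1, the villin of the brush border, the log2 level of Ggt1 was -2.44, -2.30, -2.10 and -1.93 in X17SI4, X32SI4, SI9 and X1SI4, and -2.25, -2.42 and -2.16 in X23SI4, X26SI4 and X10SI4. The diets overlapped on this scale, which was chosen after the values were seen, and differed by -0.086 (exact permutation test, two-sided, p = 0.629). Vil1 was itself lower on the low cystine diet (log2 fold change -0.37 in edgeR), so dividing by it makes the Ggt1 difference smaller in advance. No other marker was used as the divisor, and the ratio cannot show the part of the enterocytes.

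Chac1 (ENSMUSG00000027313), which cleaves reduced glutathione in the cytosol and is a known target of ATF4, lies on the plus strand of chromosome 2 from 119351229 to 119354381. It had 36, 32, 32 and 48 counts in X17SI4, X32SI4, SI9 and X1SI4, and 316, 19 and 21 counts in X23SI4, X26SI4 and X10SI4. This corresponds to 1.88, 1.45, 1.68 and 2.29 CPM on the normal diet, and to 12.9, 1.19 and 1.35 CPM on the low cystine diet. X23SI4 was therefore 8.23 times the median of the other 6 libraries and 5.62 times the highest of them. The exact Poisson interval (95%) was 11.5 to 14.4 CPM in X23SI4 and 1.69 to 3.04 CPM in X1SI4, the next highest, where the intervals cover counting error only.

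The diet difference of Chac1 rested on this library. With it, edgeR put the difference at 1.52 on the log2 scale (standard error 0.76, adjusted p = 0.794) and limma-voom at 0.83. Without X23SI4 it was -0.51 (unadjusted p = 0.206 in edgeR), and the low cys libraries left, X26SI4 and X10SI4, were both below the 4 normal cys libraries. Without X26SI4 or X10SI4 it was 1.999 or 1.95, with an unadjusted edgeR p of 0.0195 or 0.0237. DESeq2 gave no p-value for Chac1. A stretch of 50 bases, the read length, shared with the transcripts of another gene was found at 0% of the positions of Chac1. The share was 4.58% for Gclm, 10.3% for Gss and 9.70% for Oplah.

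**Figure D2:**
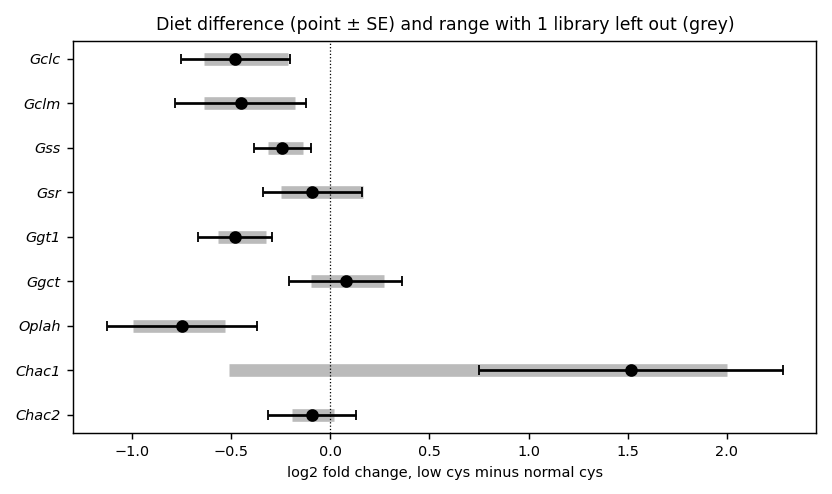
Log2 fold change of each gene, low cys minus normal cys, from edgeR (points, bars are the standard error), with the range obtained when each of the 7 libraries was left out in turn (grey). The Chac1 range runs from -0.51 to 1.999, and the ranges of Gsr, Ggct and Chac2 also include 0.

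Chac2 (ENSMUSG00000020309), the constitutive relative of Chac1 with the same reaction at a lower rate, lies on the minus strand of chromosome 11 from 30976707 to 30986350. It had 5.43, 4.22, 6.99 and 6.26 CPM in X17SI4, X32SI4, SI9 and X1SI4, and 5.71, 5.25 and 5.16 CPM in X23SI4, X26SI4 and X10SI4. The low cys libraries sat close together in the middle of the normal cys range, and X23SI4 did not stand apart. For Chac2, edgeR put the diet difference at -0.090 on the log2 scale (standard error 0.22, adjusted p = 0.918).

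Ggct (ENSMUSG00000002797), the cyclotransferase that turns gamma-glutamyl amino acids into 5-oxoproline, lies on the minus strand of chromosome 6 from 54982580 to 54992950. Its values were 6.43, 8.13, 6.47 and 3.87 CPM in X17SI4, X32SI4, SI9 and X1SI4, and 4.86, 6.94 and 7.99 CPM in X23SI4, X26SI4 and X10SI4. The diets overlapped over most of their range, and edgeR put the difference at 0.078 on the log2 scale (standard error 0.28, adjusted p = 0.945).

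Oplah (ENSMUSG00000022562), the oxoprolinase that returns 5-oxoproline to glutamate, lies on the minus strand of chromosome 15 from 76296597 to 76328015. It had 7.37, 15.3, 22.2 and 22.2 CPM in X17SI4, X32SI4, SI9 and X1SI4, and 7.06, 10.2 and 12.8 CPM in X23SI4, X26SI4 and X10SI4. All 3 low cys libraries were below 3 of the 4 normal cys libraries, while X17SI4 lay near the bottom of the low cys values. The means were 16.8 ± 7.06 (SD, n = 4) and 10.02 ± 2.89 CPM (SD, n = 3). The diet difference, the most negative of the 9 estimates in edgeR, was -0.75 on the log2 scale (standard error 0.38, adjusted p = 0.794). The unadjusted p was 0.0789 in edgeR, 0.0480 in DESeq2 and 0.00393 in edgeR without X17SI4. Exons of Exosc4 and Gm10345 lie opposite to 6.88% and 5.36% of the exon bases of Oplah.

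Per kb of exon, the level of Ggt1 was the highest of the 9 genes, with a mean of 209 CPM per kb (range 135 to 276, n = 7), followed by Gsr with 71.6 (48.2 to 109). Ggt1 exceeded Gsr, and Gsr exceeded Gclm, in 7 of 7 libraries. The 3 synthesis genes had a similar level, with 17.1 CPM per kb for Gclm (11.4 to 29.5), 15.4 for Gclc (9.92 to 26.4) and 14.9 for Gss (12.6 to 18.7), and their ranges overlapped. The cytosolic breakdown genes were lowest, with 4.24 CPM per kb for Chac2 (3.21 to 5.32), 2.48 for Oplah (1.26 to 3.97), 1.99 for Chac1 (0.725 to 7.88) and 1.44 for Ggct (0.872 to 1.83). Neighbours among these 4 overlapped, and in X23SI4 Chac1 exceeded Chac2, which was higher than Chac1 in the other 6 libraries. The lengths are those of all annotated exons of a gene, which can be longer than the transcripts present in the tissue.

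**Figure D3:**
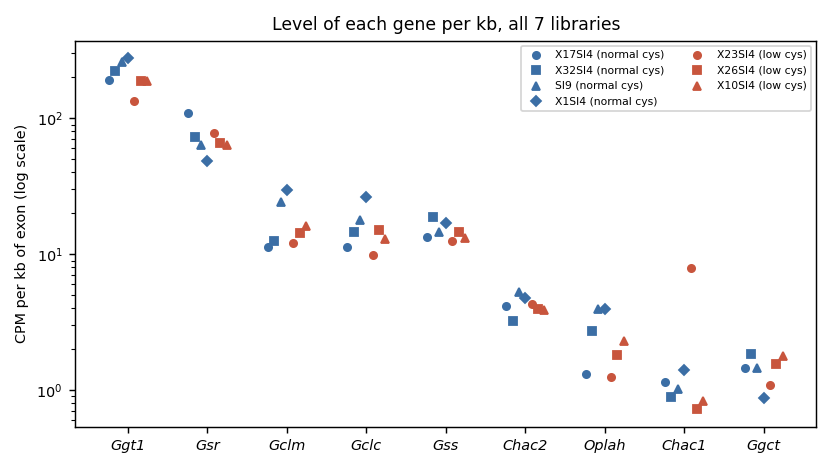
Level of each gene in CPM per kb of exon (log axis) in the 4 normal cys (blue) and 3 low cys (red) libraries, ordered by the mean. Ggt1 and Gsr lie above the synthesis genes Gclm, Gclc and Gss, which overlap, and the single high Chac1 point at 7.88 CPM per kb is X23SI4.

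The variation between mice was compared between the genes, as a description of these 7 libraries. Pearson's r of log2 CPM was computed for all 36 pairs over the 7 libraries, and 9 pairs had an unadjusted exact permutation p under 0.05, but 0 pairs passed after adjustment over the 36 (smallest adjusted p = 0.0714, Benjamini-Hochberg). Gclc and Gclm had r = 0.891 (exact permutation p = 0.00516) and Spearman's rho = 0.857 (exact permutation p = 0.0238, adjusted 0.205). Without X1SI4 and X23SI4, the libraries farthest from the median of Gclc, r was 0.775, and on values centred within each diet it was 0.883. Gclc and Oplah had r = 0.875 (exact permutation p = 0.00595, adjusted 0.0714) and rho = 0.857 (p = 0.0238), with r = 0.851 without the same libraries and 0.832 within diets. Ggt1 and Oplah had r = 0.897 (exact permutation p = 0.00516, adjusted 0.0714) and rho = 0.857 (p = 0.0238), with r = 0.852 without X1SI4 and X23SI4 and 0.899 within diets. Gclc and Ggt1 had r = 0.887 (exact permutation p = 0.0119, adjusted 0.0881) and rho = 0.75 (p = 0.0663), with r = 0.767 without X1SI4 and X23SI4 and 0.895 within diets. The r of Gclm and Ggt1, 0.769 (exact permutation p = 0.0429, adjusted 0.179), rested on SI9 and X1SI4, since it was 0.142 without them.

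The r of Gsr with Gclc, Gclm, Oplah and Ggt1 was negative, and none of these passed after adjustment. Gclm and Gsr had r = -0.814 (exact permutation p = 0.0135, adjusted 0.0881) and rho = -0.964 (p = 0.00278, adjusted 0.100), with r = -0.838 without SI9 and X1SI4 and -0.886 within diets. Gclc and Gsr had r = -0.796 (exact permutation p = 0.0448, adjusted 0.179) and rho = -0.75 (p = 0.0663), with r = -0.718 without X1SI4 and X23SI4 and -0.943 within diets. With Oplah, Gsr had r = -0.769 (exact permutation p = 0.0343, adjusted 0.177) and rho = -0.714 (p = 0.0881), with r = -0.615 without X17SI4 and X1SI4 and -0.927 within diets. With Ggt1 it had r = -0.529 (exact permutation p = 0.202, adjusted 0.427) and rho = -0.50 (p = 0.267). Proliferation markers (8 of 8 found, Mki67 and Top2a among them) summed to 347, 258, 150 and 129 CPM in X17SI4, X32SI4, SI9 and X1SI4, and to 389, 219 and 343 CPM in X23SI4, X26SI4 and X10SI4. Paneth cell markers (7 of 7 found) summed to between 703 CPM in X1SI4 and 5094 CPM in X10SI4. The libraries highest in Gclc, SI9 and X1SI4, had the lowest proliferation sums, and the part of crypt content in these correlations was not tested.

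**Figure D4:**
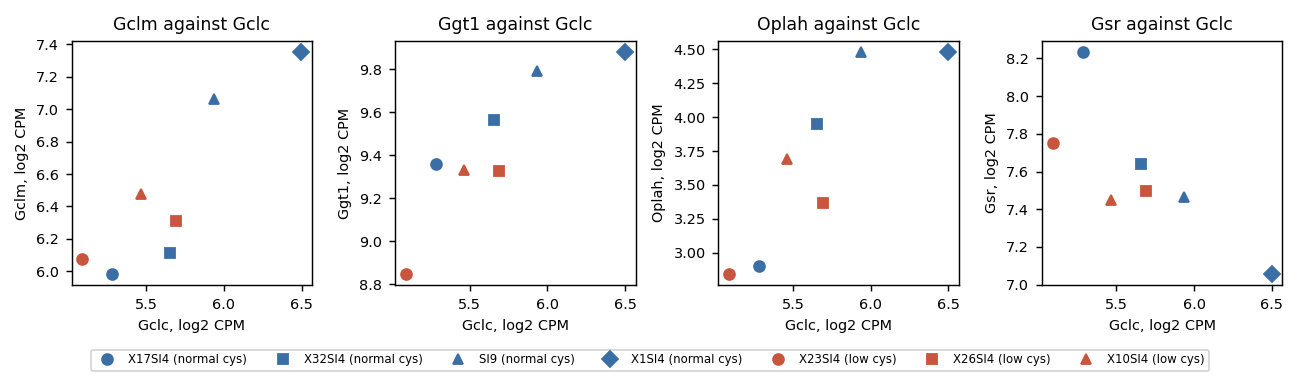
Log2 CPM of Gclm, Ggt1, Oplah and Gsr against that of Gclc in the 7 libraries (blue normal cys, red low cys, a symbol for each library). Gclm, Ggt1 and Oplah are high where Gclc is high (r = 0.891, 0.887 and 0.875), and Gsr is low there (r = -0.796).

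Among 8624 genes with a mean of at least 10 CPM, the 5 with the highest r to Gclc over the 7 libraries were Msl1 (r = 0.994, rho = 1), Eif2ak1 (r = 0.994, rho = 0.964), Tor1a (r = 0.992, rho = 1), Slc6a20b (r = 0.989, rho = 1) and Tcn2 (r = 0.987, rho = 0.964). These were picked as the extremes of many genes over few libraries and carry no p-value. In the same ranking Gclm was at place 447, Ggt1 at 472 and Oplah at 554, so many other genes had a higher r to Gclc than its partner subunit had.

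Of 9 listed gamma-glutamyltransferases and peptidases that act on glutathione or its Cys-Gly product (Ggt5, Ggt6, Ggt7, Dpep1, Dpep2, Dpep3, Anpep, Lap3 and Cndp2), 6 were tested. None had an unadjusted p under 0.05 in edgeR, all 6 estimates were lower on the low cystine diet, against 48.8% of all genes, and their median log2 fold change was -0.31, against 0.0072 for all genes. Ggt6 and Cndp2 had libraries that did not overlap between the diets, against 6.83% of all genes (3.51% lower). This holds for TMM-scaled values, and scaling to the total count was not examined for them. Cndp2, a cytosolic dipeptidase that splits Cys-Gly, had 1314, 1417, 1481 and 1708 CPM in X17SI4, X32SI4, SI9 and X1SI4, and 955, 1288 and 1216 CPM in X23SI4, X26SI4 and X10SI4 (log2 fold change -0.36 in edgeR, adjusted p = 0.794). Ggt6 had 43.2 to 51.3 CPM in the normal cys and 41.0 to 41.7 CPM in the low cys libraries, a log2 fold change of -0.17. Most of the level in this list was Anpep, the brush border aminopeptidase, with 11470 ± 1067 (SD, n = 4) and 9502 ± 1502 CPM (SD, n = 3), while Dpep1 had 965 ± 182 and 761 ± 140 CPM.

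Among 13 transporters of glutathione, its conjugates and its precursors, 0 had an unadjusted p under 0.05 in edgeR, against 5.49% of all genes. Of their estimates, 6 were lower, against 48.8% of all genes, and the median log2 fold change was 0.0018. Slc7a11, the cystine/glutamate exchanger, was rare, with 0.322 to 1.55 CPM over the 7 libraries. The luminal cystine transporter Slc7a9 had 494 to 571 CPM in the normal cys and 386 to 485 CPM in the low cys libraries, which did not overlap (log2 fold change -0.30 in edgeR, adjusted p = 0.794). This was 1 of the 13 transporters, against 6.83% of all genes (3.51% lower). It holds for TMM-scaled values, and scaling to the total count was not examined for Slc7a9. Its partner Slc3a1 had 510.2 ± 47.8 (SD, n = 4) and 423 ± 46.1 CPM (SD, n = 3), and the libraries overlapped. Of the 8 glutaredoxins and glutathione-dependent aldehyde enzymes, 0 passed an unadjusted p of 0.05 in edgeR and 0 were without overlap, against 5.49% and 6.83% of all genes. Glrx and Esd, the most abundant of these, had log2 fold changes of -0.31 and -0.28.

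A list of NADPH-producing enzymes, whose product feeds Gsr, also held Taldo1 and Tkt, which do not make NADPH themselves. The estimate was lower for 7 of its 7 genes (median log2 fold change -0.20), against 48.8% of all genes. In edgeR, 1 of them had an unadjusted p under 0.05, against 5.49% of all genes. This was Me1, the malic enzyme of the cytosol, with 9.98, 28.5, 47.5 and 44.1 CPM in X17SI4, X32SI4, SI9 and X1SI4, and 10.5, 15.1 and 18.9 CPM in X23SI4, X26SI4 and X10SI4 (log2 fold change -1.14 in edgeR, unadjusted p = 0.0452 and adjusted p = 0.794). The most abundant of the list, Taldo1 and Tkt of the pentose phosphate pathway, had log2 fold changes of -0.25 and -0.20. NRF2 is the factor that responds to oxidants and is known to act on Gclc and Gclm. Among 12 listed NRF2 regulators and targets, 9 estimates were lower, against 48.8% of all genes, and the median was -0.14. Srxn1, which repairs oxidized peroxiredoxins, had 498 to 561 CPM in the normal cys and 329.8 to 466 CPM in the low cys libraries, without overlap (log2 fold change -0.38, unadjusted p = 0.0355 and adjusted p = 0.794 in edgeR). It was 1 of the 12 at an unadjusted p under 0.05, against 5.49% of all genes. For overlap it was also 1 of the 12, against 6.83% of all genes. Nqo1, a classical NRF2 target, had 15.5 ± 1.96 (SD, n = 4) and 16.0 ± 4.05 CPM (SD, n = 3). The most abundant genes of this list, the ferritin subunits Fth1 and Ftl1, had log2 fold changes of -0.21 and -0.36.

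Genes that ATF4, the factor of the amino acid and stress response, is known to switch on were compared because Chac1 is one of them. Of the 10 genes, 6 had a lower estimate, against 48.8% of all genes, and the median log2 fold change was -0.22. Only Trib3, a pseudokinase, had an unadjusted p under 0.05 in edgeR, 1 of the 10 genes, against 5.49% of all genes. It had 9.82, 18.8, 19.6 and 16.9 CPM in X17SI4, X32SI4, SI9 and X1SI4, and 8.20, 10.1 and 9.80 CPM in X23SI4, X26SI4 and X10SI4 (log2 fold change -0.80, unadjusted p = 0.00930 and adjusted p = 0.794 in edgeR). The libraries overlapped through X17SI4. In X23SI4, the library of the high Chac1 value, 3 of the 10 genes were at their highest of the 7 libraries and Trib3 was at its lowest. Ddit4, an inhibitor of mTORC1, was at 45.1 CPM there, against 8.62 to 13.5 CPM in the others. Asns, asparagine synthetase, was at 32.04 CPM in X23SI4 but at 27.3 CPM in X17SI4, while Atf4 itself (208 CPM) and Ddit3 (12.8 CPM) were within the range of the others (182 to 254 CPM and 10.8 to 26.8 CPM).

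**Figure D5:**
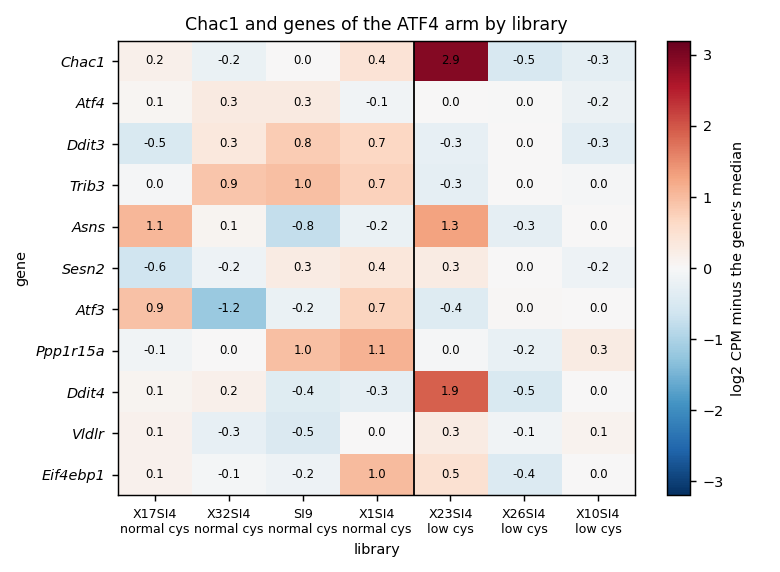
Log2 CPM of Chac1 and 10 genes of the ATF4 arm in each library, minus the median of the gene over the 7 libraries (red higher, blue lower, values printed in the cells). In X23SI4 Chac1 is 2.94 and Ddit4 is 1.91 above the median, while Atf4, Ddit3 and Trib3 are not raised.

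The other cell types of the scrapings were compared by their markers. Stromal markers (7 of 7 found) summed to 4.73 to 10.5 CPM in the normal cys and 15.3 to 21.9 CPM in the low cys libraries, and B and plasma cell markers (7 of 7) to 184 to 649 and 799.5 to 1197 CPM, both without overlap. The genes behind this with an unadjusted p under 0.05 in edgeR were Dcn, Col3a1 and Col6a1 of the stroma and Jchain and Igha of the plasma cells, all higher on the low cystine diet. Actg2 and Des of smooth muscle were also higher at this level, with their highest values in X26SI4 (5.62 and 6.81 CPM). Both overlapped between the diets, as X23SI4 (0.408 and 1.55 CPM) lay within the normal cys range. Apoa1 and Krt20 of the enterocytes were lower. The adjusted p of each of these 9 genes was over 0.05, and 5.49% of all genes had an unadjusted p under 0.05. Macrophage and endothelial markers summed to 21.8 to 85.6 and 1.48 to 4.52 CPM in the normal cys libraries, and to 83.6 to 92.0 and 4.96 to 6.31 CPM in the low cys libraries. T cell markers summed to 97.2 to 169.5 and 68.0 to 114 CPM, smooth muscle markers to 2.34 to 12.1 and 5.63 to 38.2 CPM, and goblet cell markers to 9617 to 17651 and 9645 to 10170 CPM. Proximal intestine markers summed to 473.5 to 1423 and 279 to 1056 CPM. The part of these cells in the differences of the glutathione genes was not tested. By the mean over the 7 libraries, the most abundant markers were Fabp2 and Apoa1 for enterocytes, Fabp6 and Cubn for the distal ileum, Lct and Fabp1 for the proximal intestine, Mki67 and Top2a for proliferation, Lyz1 and Defa24 for Paneth cells, and Fcgbp and Zg16 for goblet cells. Those of the other lists were Col3a1 and Dcn (stroma), Myh11 and Acta2 (smooth muscle), Igha and Jchain (plasma cells), Gzma and Cd8a (T cells), Lyz2 and C1qa (macrophages), Pecam1 and Eng (endothelium), and Cela1 (pancreas).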

How the data were processed

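RNA of ileal scrapings was sequenced as poly(A)-selected stranded libraries (paired reads of 50 bases). According to the methods of the study, reads were trimmed with TrimGalore, freed of ribosomal reads with SortMeRNA, mapped by STAR on GRCm38, and assigned to exons of the Ensembl gene annotation by featureCounts. The deposited values are raw counts, before the normalization with edgeR that the authors describe, and the handling of reads with several matches is not given in the sources used here. Samples were grouped by their diet label.

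Genes were filtered with filterByExpr of edgeR 4.0.16 (minimum count 10, minimum total 15), and TMM was used for scaling. The diets were compared by the quasi-likelihood F-test with robust dispersion in R 4.3.3, without covariates. Standard errors were derived from the F statistic, and log2 CPM used a prior count of 2. Single values were compared by two-sided exact permutation tests written in Python 3.11.15. SciPy 1.17.1 gave the ranks, the Poisson intervals and the adjustment over pairs. The fits of edgeR, DESeq2 and limma-voom were run on simulated counts. These had a single dispersion for all genes and changes larger than most of those described here. The permutation tests were not run on simulated data. Alternatives were DESeq2 1.42.0, limma-voom (limma 3.58.1), other scalings, filters and fits, and leaving out each library.

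The members and gene lists were chosen with earlier results of these data known. Genes named are the 9 members and, in each list, those with an unadjusted p under 0.05 or without overlap, with the 2 of highest level, apart from further genes named for contrast after their values were seen. Each library is 1 mouse, and a sequencing batch is not given in the sources used here. With 3 and 4 libraries, counting error and the small number of mice limit the precision.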

Additional observations from a re-analysis of the deposited data

How the results depend on the processing

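Of 126 values of the diet difference under other tools, scalings and filters or with a library left out, 119 kept the direction of the estimate and 7 did not. The number of the 9 genes with an unadjusted p under 0.05 was 1 in edgeR, 2 in DESeq2 (Ggt1 and Oplah, with no p-value for Chac1), 0 with the total library size and 0 to 3 with a library left out. Over all genes, 16 had an adjusted p under 0.05 in DESeq2, against 0 in edgeR and 0 to 1 with a library left out. The number at an unadjusted p under 0.05 was 817, and 258 (without X23SI4) to 1763 (without X17SI4) with a library left out. The total library size turned Gsr to 0.052 and Chac2 to 0.069 (log2), and left 0 of the 9 genes without overlap. With a library left out, Gsr ranged from -0.25 to 0.17, Ggct from -0.096 to 0.27, Chac1 from -0.51 to 1.999 and Chac2 from -0.19 to 0.017. The log2 ratio of Gclc to Gclm ranged from -0.21 to 0.021 between the diets, the latter without X32SI4. Relative to Vil1, an alternative added after the data were seen, the difference was 0.057 for Gclm, 0.17 for Gss, 0.37 for Gsr and 0.33 for Chac2, where edgeR gave lower estimates. Vil1 was itself lower on the low cystine diet, so the division raises each of these values. The number of pairs of genes with an adjusted p under 0.05 was 0 in each alternative. Where it was not named, the cause was not tested. No paired analysis was possible because the labels give the diets no shared replicate numbers. Chac1, with 19 to 48 counts outside X23SI4, is limited by depth.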

Other observations

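Low cys library X23SI4 was compared with the others gene by gene, by a rule set after the Chac1 value was seen. Among 14514 tested genes with a mean of at least 0.5 CPM, 5 were at 3 times or more the highest of the other 6 libraries in X23SI4, and Chac1 had the highest ratio of them (5.62). The others were E230001N04Rik (3.94), Igkv4-68 (3.72), Ddit4 (3.35) and AC156953.1 (3.31). In the other libraries, 1 (SI9) to 11 (X26SI4) genes met the same rule, so the number in X23SI4 lay within the range of the others. X23SI4 also had the lowest summed level of the 8 enterocyte markers (14571 CPM) and the highest of the 8 proliferation markers (389 CPM). No explanation was tested for the Chac1 value, and no other low cys library showed it.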
